A study of Mus musculus with 3 samples.

Results

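The nuclear pore complex genes were taken by name from the gene tables of 3 mouse mammary tumours. The symbols of the nucleoporin series (Nup with a number, Nupl1 and Nupl2) and of Aaas, Ahctf1, Gle1, Ndc1, Pom121, Rae1, Ranbp2, Sec13, Seh1l and Tpr matched 32 of 47480 genes. Nup107 was singled out because of its read counts in these same libraries, so its differences between tumours are given as a description, with no test. The tumours were of the strain FVB-MMTV-Neu, in which the mouse mammary tumour virus promoter drives the rat Neu (Erbb2) oncogene in mammary epithelium. Per the labels' protocols they were injected orthotopically into syngeneic hosts, grew to a diameter of 5 mm and were kept for 7 further days with no treatment, whereas the design text speaks of tumours from untreated MMTV-Neu mice. All belong to 1 group, so there is no control condition, and nothing states whether they came from separate donors, so the spread between them may be partly technical. They are called tumours 1, 2 and 3.

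Nuclear pores are the channels in the nuclear envelope through which proteins and RNA pass between nucleus and cytoplasm. Each pore is built from many copies of a set of proteins, the nucleoporins. An outer ring of Y-shaped complexes and an inner ring form the scaffold, transmembrane proteins anchor it, channel proteins rich in phenylalanine-glycine repeats form the barrier, and filaments on the cytoplasmic side and a basket on the nuclear side serve mRNA export and import. In mitosis the Y complex moves to kinetochores, and it is needed again for pore assembly when the envelope reforms, which makes these genes of interest in dividing tumour cells.

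The libraries held 47449153, 11388769 and 17147394 estimated counts in tumours 1, 2 and 3, so that values of tumour 2 are the least precise. Levels are given as CPM, which are counts divided by the library total after TMM scaling, a method that makes the bulk of genes equal between libraries. Directions are relative to that scaling: with library totals alone, the median of all genes in tumour 1 shifts upward by 0.84 on the log2 scale. Each tumour is 1 library, and a difference between single tumours has no replicate check. The 95% intervals given cover counting error only. Epithelial markers were present in all libraries, at a summed 1611, 1424 and 2099 CPM over 6 of 6 genes. By the lane numbers in the names of the deposited data, tumour 1 was sequenced in lane 1 and tumours 2 and 3 in lane 5. Lane number and tumour 1 can therefore not be told apart, and the comparison of tumours 3 and 2 is the one within a lane number. An equal lane number does not show a shared sequencing run. Because the tissue is bulk, fewer cells of a type and less RNA per cell cannot be told apart. Tumour 1 had a summed 5.03 CPM of 10 skeletal muscle markers against 50828 and 22656 CPM in tumours 2 and 3, and no muscle marker was at 0 in any library. The ribosomal RNA gene Rn18s-rs5 took 0.20% of counts in tumour 1, against 7.87% and 6.68% in tumours 2 and 3. The other cell type sums of tumour 1 were 137 against 289.6 and 276 CPM for 6 leukocyte markers past the filter, 3907 against 6380 and 3426 CPM for 6 fibroblast markers, 123 against 887 and 299 CPM for 4 endothelial markers, and 282 against 204 and 146 CPM for 5 adipocyte markers. The part of these differences in the values below was not tested.

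Pore genes were on balance higher in tumour 1, and none was more than 2-fold lower there. Of the 32 genes, 31 passed the filter on low counts. The exception was Nup210l, a paralog of Nup210 known mainly from testis, with 108, 0 and 1 counts in tumours 1, 2 and 3. Taken as a limit of 3 counts, the 0 in tumour 2 allows a level of up to 0.373 CPM. Among the 31, the median of log2 CPM in tumour 1 minus the mean of tumours 2 and 3 was 1.05, beside 0.11 over all 12710 genes past the filter. Without Nup107 it was 1.04. Set against tumour 2 alone the median was 1.56, beside 0.14 over all genes, and against tumour 3 alone 0.63, beside 0.09. The difference was positive for 27 of 31 genes, beside 52.9% of all genes. This number was 23 with DESeq2 size factors and 31 with library totals, where the median of all genes lay at 0.01 and 0.95. Under each of the 3 scalings, 23 pore genes lay above the median of all genes. A scaling shifts all genes nearly alike, so this count stays the same by construction and is no check. Tumour 1 was the highest tumour for 22 genes, beside 47.1% of all genes, and the lowest for 4 (Gle1, Nup50, Nup54 and Nup62), beside 41.6%. A gene counted as apart in a tumour if its level differed from each of the others by 4-fold or more in the same direction. In tumour 1, 5 of 31 lay above (Nup107, Nup93, Nup98, Nupl1 and Pom121), beside 6.05% of all genes, and 0 below, beside 8.21%. At 2-fold the counts were 11 above, beside 22.1%, and 0 below, beside 20.7%. In tumours 2 and 3 no pore gene lay apart: the shares of all genes were 0.252% above and 0.590% below in tumour 2, and 0.0787% above and 0.0787% below in tumour 3. Compared with tumour 2 alone, 9 were at least 4-fold higher in tumour 1, and compared with tumour 3 alone, 5. A call against 1 tumour is looser than a call against both. Its share over all genes was not computed, so the 6.05% does not apply to these counts. At 8-fold, Nup107 was the 1 gene above, beside 1.31% of all genes, and 0 lay below, beside 2.70%.

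**Figure D1:**
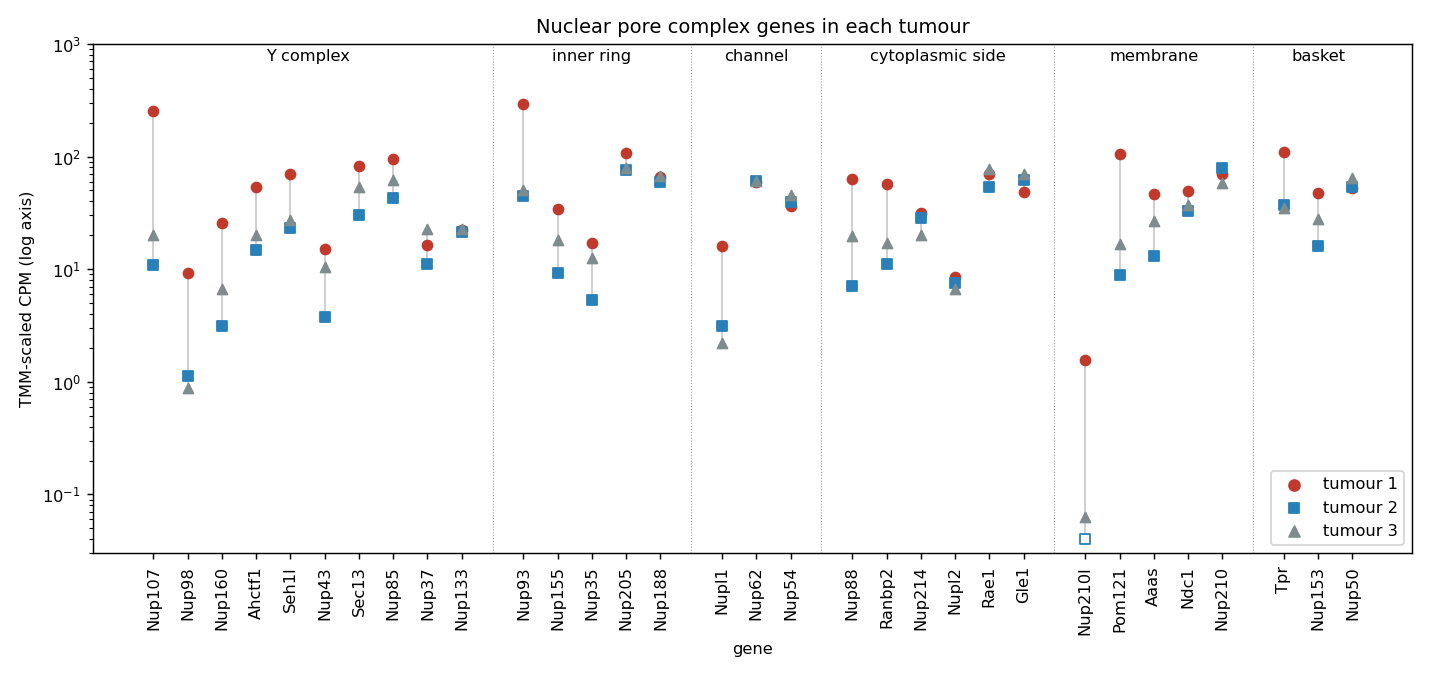
Level of each nuclear pore gene in tumours 1 (circles), 2 (squares) and 3 (triangles), as TMM-scaled CPM on a log axis, grouped by place in the pore. The open square stands for a count of 0. Nup107 and Nup93 reach 256 and 292 CPM in tumour 1, while the 3 points of Nup133 and of Nup62 lie on each other.

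The spread was uneven within the pore. Nup62, Nup133 and Nup188 hardly differed between the tumours, with SDs of log2 CPM of 0.02, 0.05 and 0.09, whereas Nup107 had 2.42 and Pom121 had 1.85. This evenness depended on the processing: with the trend of GC content and length removed, the difference of tumour 1 was 0.59 for Nup62, −0.50 for Nup133 and −0.04 for Nup188, in place of −0.02, 0.01 and 0.06. The median SD of the 31 genes was 0.78, beside 0.72 over all genes past the filter. By place in the pore, the median difference of tumour 1 was 1.37 for the 10 genes of the Y complex, 1.05 for 5 of the inner ring, 1.16 for 3 of the basket, 0.90 for 4 of the membrane ring, 0.34 for 6 of the cytoplasmic side and −0.02 for 3 of the central channel. Every group held genes near 0 as well as genes above 1.

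**Figure D2:**
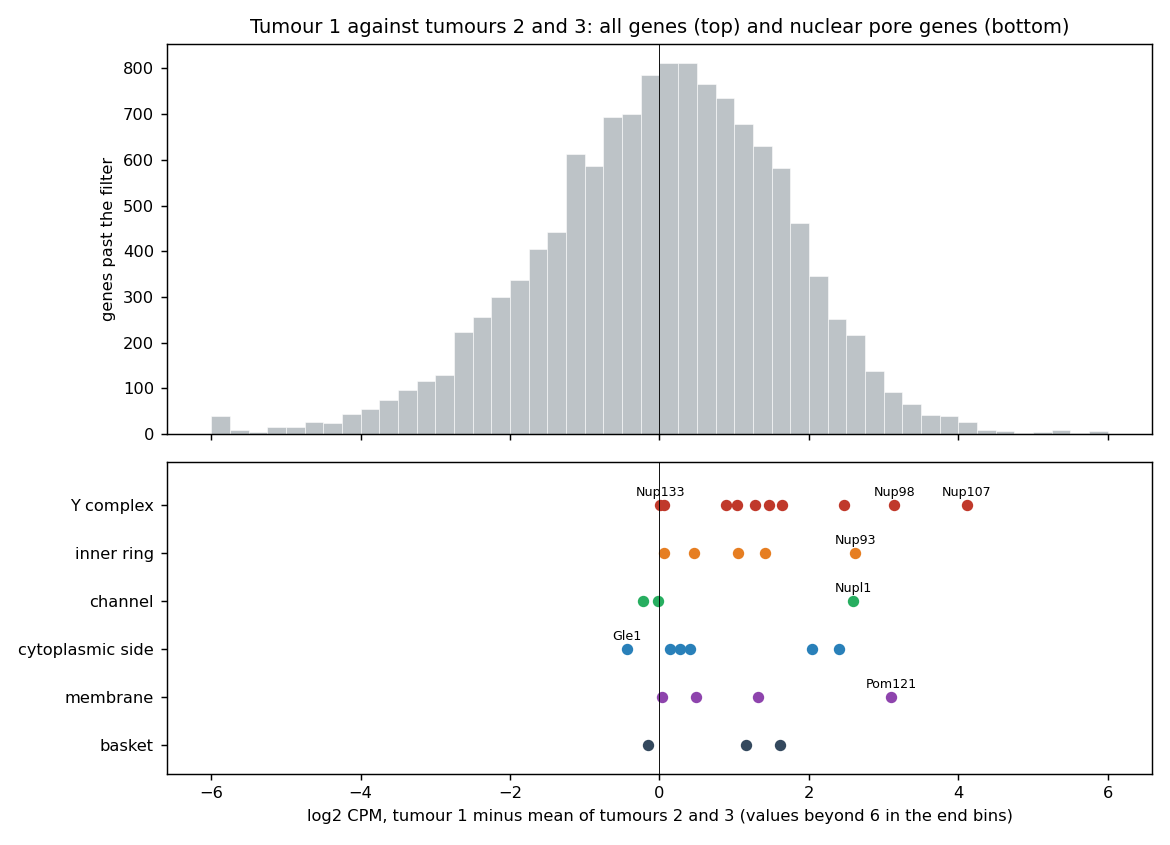
Histogram of log2 CPM in tumour 1 minus the mean of tumours 2 and 3 over 12710 genes (top; the end bins hold values beyond 6), and the same difference for 31 pore genes by group (bottom). Nup107 lies at 4.11, to the right of all other pore genes past the filter, and Gle1 lies lowest at −0.44.

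In the Y complex, Nup107 stood out. It encodes a scaffold protein of the stem of the Y that binds Nup133. The gene lies on chromosome 10, 117750621 to 117792705 (GRCm38, minus strand). It had 17740, 87 and 318 counts in tumours 1, 2 and 3. On the CPM scale its level was 256 (95% Poisson interval 253 to 260.2) in tumour 1, against 10.8 (8.66 to 13.3) in tumour 2 and 20.2 (18.1 to 22.6) in tumour 3. Tumour 1 thus lay far above the others, whose intervals did not overlap either. The log2 difference of 4.11 equals 17.3-fold and is larger than that of 99.6% of all genes past the filter.

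Nup133, the direct partner of Nup107 at the stem, had the most even level of the Y complex on the CPM scale. The values of tumours 1, 2 and 3 were 22.1, 21.3 and 22.8 CPM, with a mean of 22.05 ± 0.754 CPM (SD, n = 3). The promoter windows of both genes are shown because these partners lie at opposite ends of the Y complex in their difference between tumours. They run from 250 bases before to 50 after the start, are from RefSeq (GRCm38.p6) and are written 5′ to 3′ on the minus strand, on which both genes lie. Capitals mark matches, on either strand, to the motifs of NRF1 (its core GCATGCGC), ETS factors (CCGGAAG), NF-Y (CCAAT), Sp1 (GGGCGG) and the cAMP response element (TGACGTCA).
Nup107, chr10:117792656-117792955: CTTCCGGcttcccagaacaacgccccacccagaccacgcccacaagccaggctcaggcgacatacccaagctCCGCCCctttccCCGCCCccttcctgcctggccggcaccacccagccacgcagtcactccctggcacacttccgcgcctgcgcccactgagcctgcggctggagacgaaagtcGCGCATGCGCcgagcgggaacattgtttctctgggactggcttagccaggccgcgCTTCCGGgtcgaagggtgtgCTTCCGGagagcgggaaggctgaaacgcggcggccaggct
Nup133, chr8:123949216-123949515: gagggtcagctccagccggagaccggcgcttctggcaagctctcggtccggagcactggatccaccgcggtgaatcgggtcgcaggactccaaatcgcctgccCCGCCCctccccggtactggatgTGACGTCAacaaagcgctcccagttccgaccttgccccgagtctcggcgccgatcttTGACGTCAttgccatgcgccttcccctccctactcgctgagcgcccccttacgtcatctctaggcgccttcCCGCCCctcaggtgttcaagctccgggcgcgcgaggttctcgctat
The Nup107 window held 2 NRF1, 3 ETS and 2 Sp1 matches, and the Nup133 window 2 Sp1 and 2 cAMP response element matches. The 2 NRF1 matches lie on opposite strands and overlap each other, and no others overlap. Of 27 pore genes with a window in the table, 4 held the NRF1 core (Nup107, Nup50, Nup62 and Nupl1), beside 2.80% of 27025 promoters, and 8 the ETS motif, beside 9.16%. The Sp1 motif was in 18, beside 36.0%, NF-Y in 10, beside 37.9%, and the cAMP response element in 3, beside 1.86%. These matches describe the letters of the windows.

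Relative to the rest of the Y complex, Nup107 was high in tumour 1 and near the median in the others. Counts per kb of the longest annotated transcript were used to compare levels between genes. Nup107 was at 82.4 CPM per kb in tumour 1, where the other 9 genes ranged between 1.39 (Nup98) and 51.2 (Sec13) with a median of 8.80. In tumour 2 it was at 3.47 CPM per kb, where the others ranged between 0.167 (Nup98) and 19.4 (Nup85) with a median of 3.66. In tumour 3 it was at 6.49 CPM per kb, where the others ranged between 0.133 (Nup98) and 33.3 (Sec13) with a median of 6.08. Its rank among the 10 genes was 1 in tumour 1, 6 in tumour 2 and 5 in tumour 3. The ratio of Nup107 to the median of the others, which does not depend on library scaling, was 9.32, 0.952 and 1.06 in tumours 1, 2 and 3. As a log2 value, the ratio of tumour 1 lay 3.21 above the mean of tumours 2 and 3, and with a mean in place of the median over the other genes 2.78. Against Nup133 alone, the ratio per kb was 21.6, 0.949 and 1.66 in tumours 1, 2 and 3. Nup107 took 39.7% of all Y complex counts in tumour 1 (exact 95% binomial interval 39.2 to 40.1%), 6.66% in tumour 2 (5.37 to 8.15%) and 8.21% in tumour 3 (7.36 to 9.12%).

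**Figure D3:**
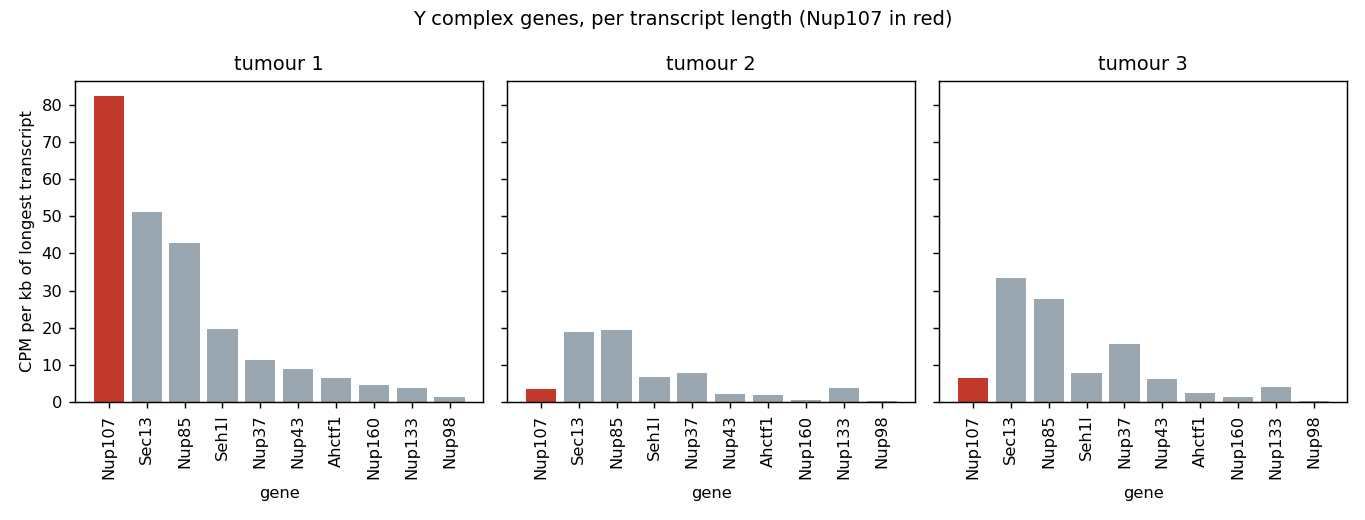
Level of the 10 Y complex genes in each tumour as CPM per kb of the longest transcript (bars, linear axis from 0; 1 library per panel, so no error bars), with Nup107 in red. Nup107 is the tallest bar in tumour 1 at 82.4, and lies below Sec13, Nup85, Nup37 and Seh1l in tumours 2 and 3.

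The other Y complex genes spread between Nup133 and Nup107. Nup160, a scaffold protein of an arm of the Y, was at 25.5, 3.11 and 6.67 CPM in tumours 1, 2 and 3, with 25 counts behind the value of tumour 2. Nup98, whose precursor is cut into Nup98 and the Y subunit Nup96, was at 9.32, 1.12 and 0.890 CPM, on 645, 9 and 14 counts. It was the lowest gene of the complex in each library. Ahctf1 encodes ELYS, which brings the Y complex to chromatin after mitosis. Its values were 53.5, 14.7 and 20.0 CPM. Seh1l, which is also a subunit of the GATOR2 complex of nutrient signalling, was at 69.8, 23.2 and 27.2 CPM. Tumour 1 lay more than 2-fold above both others in each of these 4 genes.

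Smaller differences were found for the remaining 4. Nup85, an arm protein, was at 95.7, 43.3 and 62.0 CPM. Sec13, which also forms the COPII coat of secretory vesicles, was at 81.9, 30.1 and 53.2 CPM. Nup43, a small arm protein, was at 15.3, 3.73 and 10.6 CPM. These 3 genes shared the order tumour 1, tumour 3, tumour 2, as Nup107, Nup160, Ahctf1 and Seh1l did. The same order was found in 17 of 31 pore genes and in 33.7% of all genes. Nup37, which sits on Nup160, was at 16.5, 11.1 and 22.8 CPM and highest in tumour 3. Sec13 and Seh1l have partners outside the pore. Of 9 COPII genes other than Sec13, 0 lay 2-fold above or below in tumour 1, beside 22.1% and 20.7% of all genes. Sec13 itself was also less than 2-fold above tumour 3. Sec31a was at 125, 198 and 201 CPM, Sec24c at 108, 77.2 and 118 CPM and Sec23a, which had the largest range, at 27.1, 57.4 and 34.2 CPM. Of the 3 GATOR2 genes, Mios was at 17.7, 5.34 and 3.43 CPM, Wdr24 at 20.98, 51.2 and 48.9 CPM and Wdr59 at 7.75, 8.70 and 10.3 CPM, so they went both ways.

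In the inner ring the largest difference belonged to Nup93, the linker that ties the channel proteins to the scaffold. Nup93 (chromosome 8, 94214564 to 94317227) was at 292 CPM (288 to 296) in tumour 1, against 45.1 (40.6 to 50.004) and 50.02 (46.6 to 53.6) CPM in tumours 2 and 3, whose intervals overlapped. The difference was 2.62 on the log2 scale, or 6.15-fold. Its large partners were nearly even, with Nup188 at 66.0, 59.8 and 66.9 CPM and Nup205 at 107, 75.3 and 79.9 CPM. Nup155, which links the ring to the membrane, was at 34.3, 9.20 and 18.0 CPM, and Nup35, which contacts the membrane and Nup155, was at 17.0, 5.34 and 12.5 CPM. Per kb, Nup93 was at 99.8, 15.4 and 17.1 CPM in tumours 1, 2 and 3, above the other 4 genes of the ring in each library.

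The central channel proteins Nup62, Nup54 and Nup58 (the product of Nupl1) form 1 complex, and their genes differed in pattern. Nup62 had nearly the same level in each, at 59.8, 60.3 and 61.3 CPM, with a mean of 60.4 ± 0.747 CPM (SD, n = 3). Nup54 was at 36.4, 39.1 and 45.9 CPM. Nupl1 was at 16.2, 3.11 and 2.22 CPM, on 1122, 25 and 35 counts. Nupl1 alone of the 3 lay apart in tumour 1. Its annotated exons share 1756 bases with Gm49336, a gene on the same strand with no deposited value, and 241 with Atp8a2. The estimated counts of Nupl1 were whole in each library, so they show no division of reads, but the overlap leaves its value uncertain.

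On the cytoplasmic side, the filament gene Ranbp2 and its neighbour in the pore Nup88 lay more than 2-fold above both others in tumour 1, and the other 4 genes did not. Ranbp2, which encodes the SUMO ligase and Ran-binding filament protein, was at 57.1, 11.2 and 17.0 CPM. Nup88, which anchors Nup214, was at 62.7, 7.08 and 19.7 CPM. Nup214, a binding site of export receptors, was at 31.7, 28.6 and 20.0 CPM. Gle1, the activator of the helicase that releases mRNA from its export factor, was at 48.4, 61.6 and 69.7 CPM, the lowest in tumour 1. Rae1, an mRNA export factor and mitotic checkpoint protein that binds Nup98, was at 70.7, 53.8 and 77.1 CPM, whereas Nup98 differed more than 4-fold. Nupl2, a small repeat protein that binds Gle1, was at 8.56, 7.58 and 6.61 CPM.

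Of the membrane proteins, Pom121 differed most. Tumours 1, 2 and 3 had 105, 8.82 and 16.7 CPM, a log2 difference of 3.10 for tumour 1. Its estimated counts of 7234.26, 71.1714 and 263.269 were not whole in any library, as happens where Salmon divides reads between sequences, and 665 bases of its exons overlap Nsun5 on the other strand. Ndc1, an anchor of the scaffold, was at 49.3, 33.2 and 37.3 CPM, and Aaas, which encodes the Ndc1 partner ALADIN, at 46.9, 13.2 and 26.6 CPM. Nup210, the lumenal ring protein, was at 69.5, 78.9 and 58.4 CPM and was the 1 pore gene highest in tumour 2, beside 35.0% of all genes.

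In the nuclear basket, Tpr, the coiled-coil protein of the basket filaments, was at 109, 37.0 and 34.7 CPM. Nup153, which recruits it to the pore, was at 47.6, 16.0 and 28.1 CPM. Nup50, a cofactor of importin release, was at 53.1, 53.3 and 64.8 CPM. Tpr lay more than 2-fold above both others in tumour 1. Nup153 was highest there but less than 2-fold above tumour 3, and Nup50 was nearly even. The estimates of Tpr were likewise not whole in any library.

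Within the same lane number, pore genes were slightly higher in tumour 3 than in tumour 2. The median difference of tumour 3 minus tumour 2 was 0.28 on the log2 scale, beside 0.03 over all genes. Of 31 genes, 6 were at least 2-fold higher in tumour 3 (Aaas, Nup160, Nup35, Nup37, Nup43 and Nup88), beside 8.81% of all genes, and 0 were at least 2-fold lower, beside 7.39%. The largest of these differences was that of Nup43, at 10.6 CPM in tumour 3 against 3.73 CPM in tumour 2, or 1.48 on the log2 scale. Tumour 2 was the lowest tumour for 21 of 31 genes, beside 39.6% of all genes, and tumour 3 for 6, beside 18.8%. Tumour 3 was the highest for 8, beside 17.9%, and 17 had the order tumour 1, tumour 3, tumour 2, beside 33.7%. Compared with both others, tumour 2 was at least 2-fold lower for 5 genes, beside 7.14%, and tumour 3 for 0, beside 1.35%. No gene lay 2-fold above both others in tumour 2, beside 5.43%, or in tumour 3, beside 0.865%.

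Genes next to Nup107 on the chromosome were also high in tumour 1. Of 11 protein-coding genes within 1 Mb of it that passed the filter, 8 exceeded both other tumours at least 2-fold, beside 22.1% of all genes, and 7 at least 4-fold, beside 6.05%. Their median difference was 3.19, the highest around any of the 32 pore genes. The next highest was 1.13 around Nup155. The median around Nup93 was −0.70, beside 0.11 over all genes, or 0.15 with library totals, beside 0.95 over all genes. The genes of this region included Mdm2, the ubiquitin ligase of p53, whose lower end lies 61.7 kb below that of Nup107, with 522 CPM in tumour 1, against 6.46 CPM in tumour 2 and 15.2 CPM in tumour 3. Frs2, an adaptor of FGF receptors, was at 213 against 1.24 and 7.18 CPM, with 10 counts behind the value of tumour 2, and Cct2, a chaperonin subunit, at 3795 against 51.7 and 134 CPM. Rab3ip, an exchange factor of Rab GTPases, was at 206 against 8.33 and 14.9 CPM, Slc35e3, of a solute carrier family, at 446 against 57.7 and 41.0 CPM, Rap1b, a small GTPase, at 484.02 against 39.1 and 79.4 CPM, and Mdm1 at 65.0 against 4.23 and 5.53 CPM.

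The other 4 neighbours differed less. Yeats4, a chromatin reader, had 405 CPM in tumour 1, against 141 and 125 CPM, and the lysozyme gene Lyz2 had 478 against 222 and 264 CPM. Its paralog Lyz1, named after its values were seen, can share reads with it. Lyz1 did not pass the filter, which asked for a minimum level in every tumour, because of its low count in tumour 3. Lyz1 had 20812, 7 and 2 counts in tumours 1, 2 and 3, or 301, 0.870 and 0.127 CPM. Cpsf6, a cleavage factor of mRNA ends, was at 116 against 51.2 and 79.8 CPM. Cpm, a carboxypeptidase gene that lies between Cpsf6 and Mdm2, was at 7.17 against 6.09 and 6.42 CPM. The 11 differences past the filter thus ran between 0.20 and 6.11 on the log2 scale, with Nup107 at 4.11 among the higher ones. Around Nup93, 17 of 23 neighbours were lower in tumour 1, whereas 52.9% of all genes were higher there. Of the 23, 0 exceeded both other tumours 2-fold, beside 22.1% of all genes. With library totals the median around Nup93 was 0.15, beside 0.95 over all genes.

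**Figure D4:**
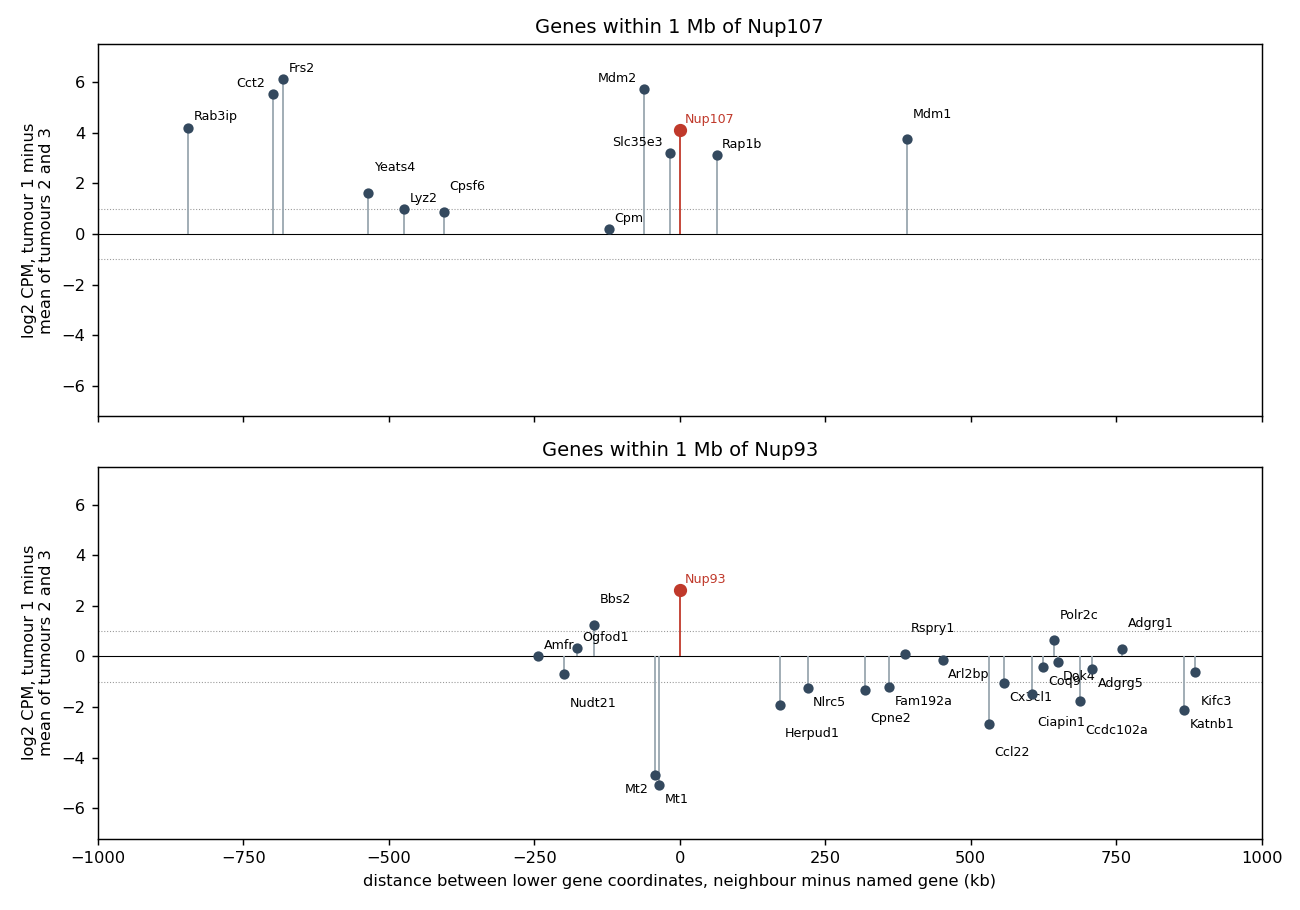
Difference of log2 CPM, tumour 1 minus the mean of tumours 2 and 3, for protein-coding genes past the filter within 1 Mb of Nup107 (top) and of Nup93 (bottom), against distance in kb. Each point is a gene, the named pore gene is red and dotted lines mark 2-fold. Neighbours of Nup107 lie between 0.20 and 6.11. Of 23 neighbours of Nup93, 17 lie below 0, whereas 52.9% of all genes lie above 0. With library totals the median of the Nup93 neighbours is 0.15, beside 0.95 over all genes.

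Other genes of nuclear transport differed in both directions. Of 23 karyopherins, the carriers of cargo through the pore, 7 lay 2-fold above and 2 below in tumour 1, with a median difference of 0.82. Kpnb1, importin beta, was at 276, 90.2 and 145 CPM in tumours 1, 2 and 3, Ipo5 at 129, 197 and 170 CPM, and Xpo5, the exporter of pre-miRNA, at 33.0, 5.59 and 13.0 CPM. Of 6 genes of the Ran system, which gives transport its direction, 1 lay above and 2 below, with a median of −0.57, Ran at 485, 91.2 and 232 CPM and its GTPase activator Rangap1 at 137, 350.1 and 366 CPM. Of 16 mRNA export genes, 4 lay above and 2 below, with a median of 0.10. The export receptor Nxf1 was at 145, 706 and 492 CPM, Ddx39b at 264, 536 and 489 CPM, and Thoc7, which had the largest range, at 43.2, 3.98 and 14.1 CPM. Of 10 genes of the lamina and inner nuclear membrane, 5 lay above and 0 below, with a median of 1.18. The lamin B receptor gene Lbr was at 78.6, 1.12 and 5.34 CPM, Lmna at 192, 376 and 347 CPM and Banf1 at 164, 278 and 438 CPM. The shares over all genes at this threshold are the 22.1% and 20.7% given above.

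Transcript properties moved with these values. Tumour 1 had relatively more counts of long transcripts with low GC content. The pore genes had a median longest transcript of 4030 bases and a median GC content of 47.6%, beside 3354 bases and 50.1% over all genes past the filter. Across the 31 genes, which share libraries, the difference of tumour 1 had a Spearman rho of −0.35 with GC content and 0.21 with length, beside −0.30 and 0.24 over 12652 genes. With the trend on both removed, the median difference was 0.70, with 0.04 over all genes, and 22 of 31 genes were above 0 in place of 27. Above the median of all genes lay 22 in place of 23. Of 8 proliferation markers, 1 lay 2-fold above in tumour 1, beside 22.1% of all genes, and 3 below, beside 20.7%, with a summed 1266 CPM against 1863 and 2016 CPM. The part of these properties in the result was not tested further.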

How the data were processed

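Total RNA of 3 untreated tumours was made into Illumina TruSeq mRNA libraries and read from both ends, per the labels' protocols. The values the authors deposited are estimated counts for each gene, whose columns are those of a Salmon gene table per the file headers; they are scaled neither for depth nor for length. The processing notes of the submitters also name STAR, SAMtools, Picard and mm10. Tool versions, annotation and strand setting: not given in the sources used here. Reads of overlapping genes can therefore not be told apart by strand.

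Estimated counts were rounded. Genes were filtered with filterByExpr of edgeR 4.0.16 (R 4.3.3; minimum count 10, minimum total 15), which left 12710, and scaled by TMM factors of 1.48, 0.722 and 0.936 for tumours 1, 2 and 3. Log2 CPM used a prior count of 2. With 1 group no test was made. Differences are tumour 1 minus the mean of tumours 2 and 3. Positions, lengths and GC content came from GENCODE M21 (GRCm38, also named mm10), by symbol or, through RefSeq synonyms, by older symbol. All 32 genes matched. A gene's window was set by its lower coordinate. All pore genes are named, of each other list the 2 highest genes and the one with the largest range, and of the neighbours of Nup107 all past the filter. The genes, lists and comparisons were chosen with earlier results of these data known. Leukocyte markers that did not pass the filter are not reported here.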

Additional observations from a re-analysis of the deposited data

How the results depend on the processing

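No paired analysis was possible because there is 1 group, whose replicate numbers only follow sample order. The alternatives were other scalings (DESeq2 1.42.0 size factors, library totals), filters, prior counts of 0.5 and 10, each tumour left out, removal of the GC and length trend, removal of muscle markers and Rn18s-rs5, other thresholds and windows, and, chosen after seeing the data, counts thinned to the smallest library. Library totals shift the median of all genes in tumour 1 by 0.84. With them 11 pore genes lay 4-fold above, the median difference was 1.89, the median SD 1.30 and the median around Nup107 4.04. The median around Nup93 was 0.15, which changes its sign but stays below the 0.95 of all genes with totals. The share of all genes 4-fold above with totals was not computed, and the 6.05% under TMM does not apply to these 11. The median minus that of all genes, from which a scaling cancels by construction, was 0.94, and 0.51 without tumour 2, 1.43 without tumour 3 and 0.66 with the trend removed. All 31 genes were above 0 with totals, where the median of all genes was 0.95, and 23 with DESeq2 size factors. Under TMM, DESeq2 size factors and totals, 23 pore genes lay above the median of all genes, a count that a scaling leaves unchanged by construction. In place of 5, 4 genes lay 4-fold above in tumour 1 with the trend removed. With thinned counts, where 30 pore genes passed the filter, 4 did. The shares of all genes under these 2 settings were not computed. At 2-fold 11 genes lay above in tumour 1 and 5 below in tumour 2, and at 8-fold 1 lay above. Without tumour 3, 9 genes lay above in tumour 1, which are by construction the 9 below in tumour 2. Without tumour 2, 5 lay above in tumour 1, which are the 5 below in tumour 3. Without tumour 1, 0 lay apart. The shares of all genes with a tumour left out were not computed. Leaving out 1 tumour gave a median SD of 0.32 (without tumour 1) to 1.10 (without tumour 3) and a median around Nup107 of 3.41 to 3.78. The median difference was 0.59 without tumour 2 and 1.56 without tumour 3. The excess of Nup107 over its subcomplex was 3.08 with the trend removed and 2.78 with a mean over the other genes. Its log2 ratio changed sign in tumour 2 with that mean (0.18) and in tumour 3 with thinned counts (−0.12), both near 0. The median around Nup107 was 3.41 among genes averaging 1 CPM or more, 1.72 with no filter, 2.98 with the trend removed and 2.29 within 2 Mb. The cause of these changes was not tested. Depth limits Nup98, Nupl1, Nup160 and Nup43 in tumour 2, on 9, 25, 25 and 30 counts.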
